A study of Mus musculus with 4 samples.

Results

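The comparison set the corpus epithelium of mice 3 days after L635 with amphiregulin (AREG) against that of untreated mice, and asked how near the treated epithelium lay to its baseline. The corpus is the acid-secreting body of the stomach, and L635 is a drug that kills its parietal cells. Both groups were C57BL6/J wild-type mice of 6 to 7 weeks. The title of the AREG day 3 library names recovery, AREG and day 3, and the study's injury was a single oral dose of 350 mg/kg L635. No source used here gives the dose, route or timing of AREG. The untreated mice were given PBS. Each group is 1 library of dissociated corpus epithelial cells, and no source used here says whether a library pools several mice. The 2 libraries held 26820 of the 38732 cells of the series: 12923 AREG day 3 cells and 13897 untreated cells, kept where a barcode had 500 or more unique molecular identifiers (UMIs, tags that mark single RNA molecules), 200 or more genes and no more than 50% mitochondrial UMIs. The labels state that 25000 cells were loaded per capture. The other libraries of the series, day 3 after L635 without AREG (7986 cells) and day 1 after L635 (3926 cells), appear only beside these 2.

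The corpus gland is organised along its length. Pit cells at the surface secrete the mucin Muc5ac with gastrokines and trefoil factor 1. Parietal cells pump acid through the Atp4a and Atp4b subunits of the proton pump. Mucous neck cells make Muc6, and the chief cells at the base, which arise from neck cells, secrete pepsinogens and, in the mouse, gastric intrinsic factor. AREG is a ligand of the EGF receptor. Loss of parietal cells is followed by proliferation and by changes in neck and chief cells, after which the gland is rebuilt.

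With 1 library a side there was no test. Intervals given below are 95% intervals for counting error alone and do not contain the differences between mice. A level is a count per 1000000 UMIs (CPM), taken from counts summed over all cells of a library, and levels are compared between libraries and not between genes. A ratio is AREG day 3 over untreated, on the scale log2(CPM + 1), while count ratios printed with an interval have no constant added, and a gene is called higher or lower at a ratio of at least 1 or at most -1, which is 2-fold. In a sum over cells, fewer cells of a type and less RNA per cell cannot be told apart. The AREG day 3 cells had a median of 2685 UMIs and 1081 genes, and the untreated cells 2507 UMIs and 882 genes. The median mitochondrial share was 5.65% in AREG day 3 cells and 5.51% in untreated cells. The mitochondrial limit removed 1.15% of AREG day 3 barcodes and 3.89% of untreated barcodes. The libraries shared 3 cell barcodes. The tissue label fitted the immune and fibroblast markers: 16 immune markers summed to 6.26 CPM in either library, and 8 fibroblast markers to 2.27 CPM in either library. The 6 endothelial markers summed to 42.8 CPM in AREG day 3 cells and 35.4 CPM in untreated cells. An endothelial-like cluster held 11 AREG day 3 and 19 untreated cells.

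At day 3 with AREG the most abundant secreted products, among them Pgc, Clps, Pla2g1b, Tff1, Gkn1 and Gkn2, made up less of the RNA than in untreated mice, while 83.1% of the genes tested made up more. In AREG day 3 cells 32.2% of UMIs came from the top 20 genes, against 46.1% in untreated cells. Pgc, the precursor of the protease pepsin C, had 44752 CPM in AREG day 3 cells and 83464 CPM in untreated cells. Clps, the colipase that anchors lipase to fat, had 23812 CPM in AREG day 3 cells and 46473 CPM in untreated cells. The pit products Tff1, Gkn1 and Gkn2 stood closer to baseline, with Tff1 at 54127 CPM in AREG day 3 cells and 64407 CPM in untreated cells. Of the 4969 genes that reached 20 CPM in one library or both, 901 were called higher (18.1%) and 74 lower (1.49%) at AREG day 3. The median ratio over these genes was 0.50. With edgeR's TMM scaling, which centres the ratios of most genes near 0, 61 genes were called higher and 210 lower, so the split into higher and lower calls depends on the scaling. Genes and lists are therefore also given relative to the median of 0.50. All 15 of the highest and all 15 of the lowest genes by ratio stayed past 2-fold in the same direction under TMM scaling.

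**Figure D1:**
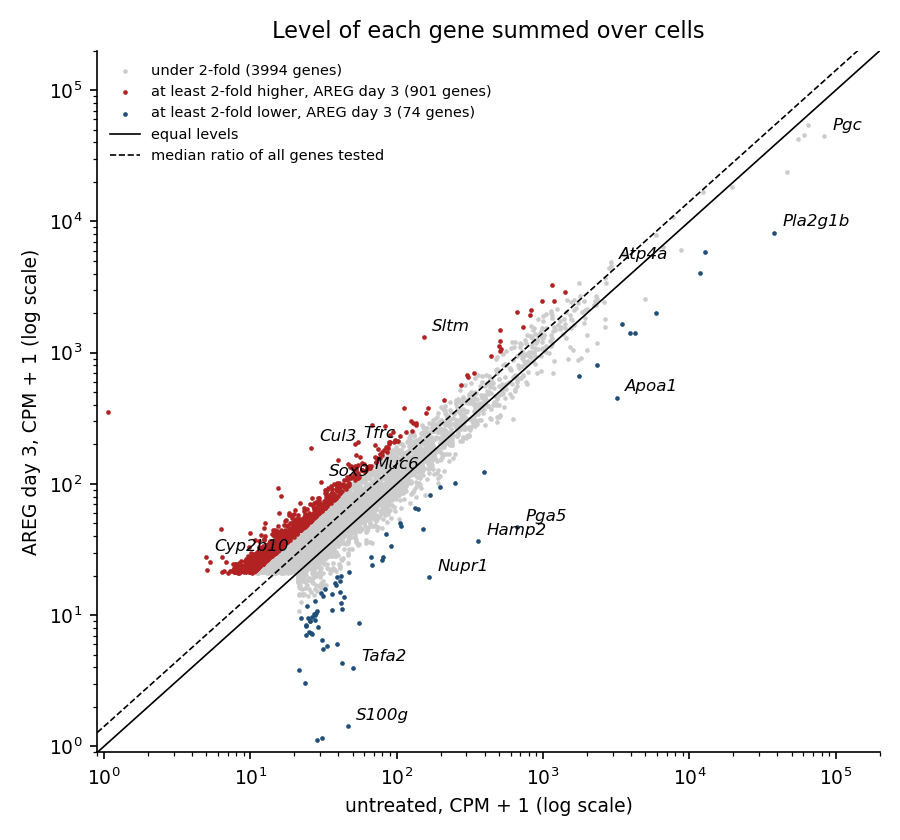
Each point is 1 of the 4969 genes that reached 20 CPM, with its level in AREG day 3 cells on the vertical axis and in untreated cells on the horizontal axis, both as CPM + 1 on log scales; the solid line marks equal levels and the dashed line the median ratio. Most points lie above the solid line, while Pgc, Pla2g1b and Apoa1 lie below it.

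Over the 5610 genes that reached 20 CPM in any of the 4 libraries, the median absolute log2 ratio to untreated was 0.56 for AREG day 3, 0.58 for day 3 without AREG and 0.66 for day 1. After each library's own median ratio was subtracted, the median absolute distance was 0.37 for AREG day 3, 0.40 for day 3 without AREG and 0.48 for day 1. At AREG day 3, 19.3% of genes lay at or past 2-fold in either direction, against 22.3% at day 3 without AREG and 29.8% at day 1. The 3 comparisons share the untreated library, and with 1 library each the order of the day 3 libraries has no replicate check.

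Most of the 15 lowest genes came from parietal-like or neck/chief-like cells. Hamp2, a hepcidin-family gene, had 35.7 CPM in AREG day 3 cells and 361 CPM in untreated cells, a count ratio of 0.0987 (0.0941 to 0.104). Apoa1, which encodes the main protein of high-density lipoprotein, had 453 CPM in AREG day 3 cells and 3188 CPM in untreated cells, a count ratio of 0.142 (0.140 to 0.144). Kcne1, a potassium channel subunit, had 2.02 CPM in AREG day 3 cells and 22.6 CPM in untreated cells. These genes came mainly from parietal-like cells, which held 88.2% of the AREG day 3 UMIs and 80.7% of the untreated UMIs of Hamp2. The day 3 library without AREG held 45.7 CPM of Hamp2, 613 CPM of Apoa1 and 3.11 CPM of Kcne1, which is on the same side of untreated as the AREG day 3 library.

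Of the genes held mainly by neck/chief-like cells, Pga5, a pepsinogen, had 45.9 CPM in AREG day 3 cells and 664 CPM in untreated cells, a count ratio of 0.0691 (0.0663 to 0.0721). Nupr1, a stress-responsive nuclear protein, had 18.6 CPM in AREG day 3 cells and 166 CPM in untreated cells. Pla2g1b, a secreted phospholipase best known from the pancreas, had 8241 CPM in AREG day 3 cells and 38086 CPM in untreated cells. The protease and lipase genes Try10 and Cel had 5.43 and 4.83 CPM in AREG day 3 cells, against 29.8 and 32.4 CPM in untreated cells. Endocrine-like cells held 95.2% of the AREG day 3 UMIs of Cel and 95.6% of its untreated UMIs. Cym, the milk-clotting protease chymosin, had 7.76 CPM in AREG day 3 cells and 54.6 CPM in untreated cells, but 1 cell held 21.8% of its untreated UMIs. The RNA Hoxaas3 had a count ratio of 0.253. Rnase1, a secreted ribonuclease, had a count ratio of 0.242, and parietal-like cells held 67.0% of its untreated UMIs.

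A further 3 of the 15 lowest genes did not track a gland cell class. S100g and Prap1, which intestinal absorptive cells make, had 0.424 and 0.116 CPM in AREG day 3 cells, against 45.2 and 27.5 CPM in untreated cells. One cluster of 38 untreated cells and 0 AREG day 3 cells held 92.6% and 94.5% of the untreated UMIs of S100g and Prap1. Without that cluster untreated cells had 3.36 CPM of S100g and 1.53 CPM of Prap1. Tafa2, a small secreted protein, had 2.99 CPM in AREG day 3 cells and 49.5 CPM in untreated cells, and barcodes with fewer than 50 UMIs, which hold mostly free RNA, had 4.93 CPM in the AREG day 3 library and 1138 CPM in the untreated library. The part of free RNA in its ratio was not tested.

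**Figure D2:**
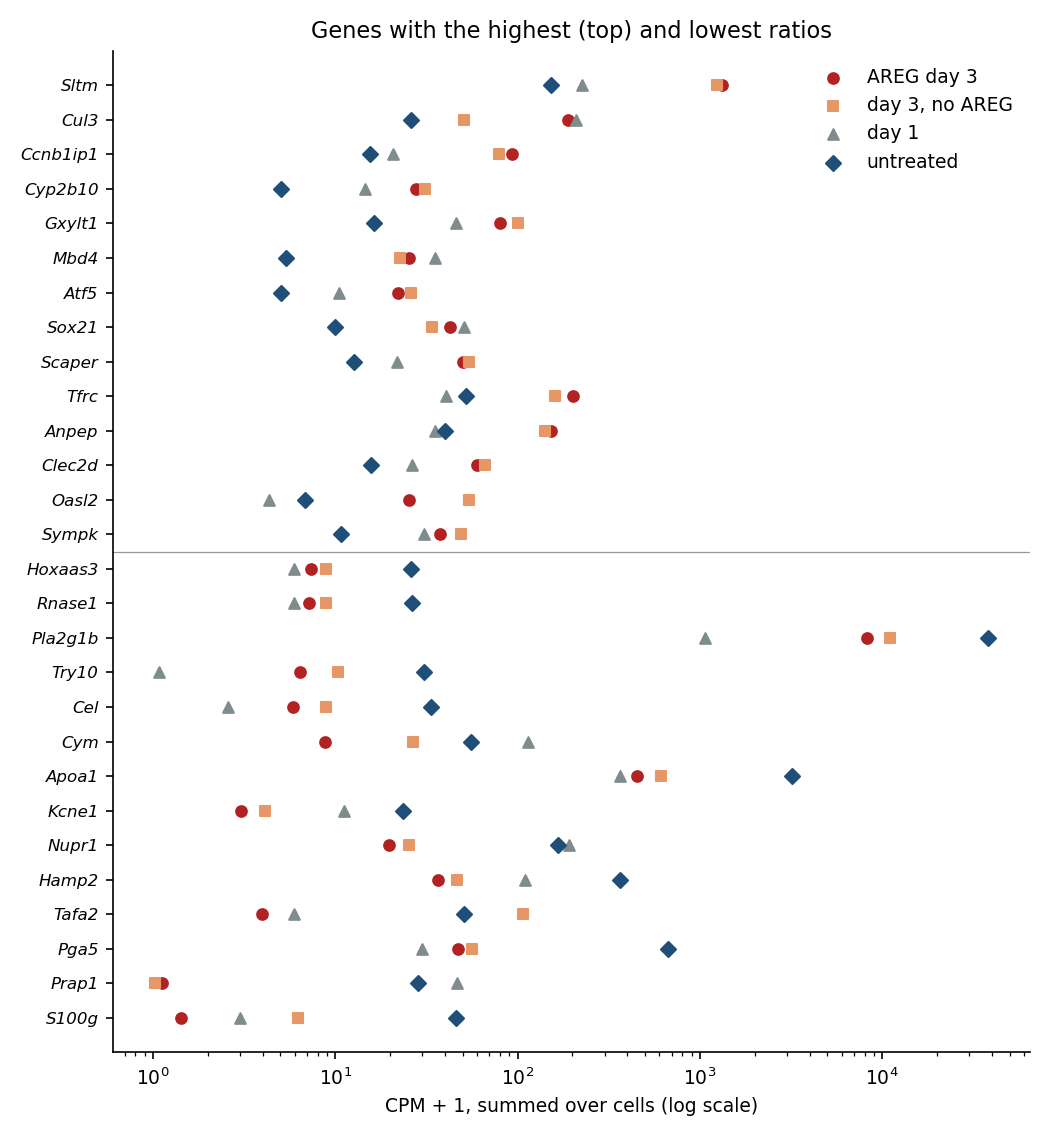
Level of 14 of the 15 highest genes (above the line) and 14 of the 15 lowest genes (below it) as CPM + 1 on a log scale in AREG day 3 (circles), day 3 without AREG (squares), day 1 (triangles) and untreated (diamonds) libraries. The untreated level of Hamp2 is 361 CPM, against 35.7 CPM at AREG day 3 and 45.7 CPM at day 3 without AREG.

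Parietal-like cells held the largest share of AREG day 3 UMIs for 10 of the 15 highest genes, pit-like cells for 4 and neck/chief-like cells for 1. These classes held 30.7%, 39.2% and 15.5% of all UMIs in AREG day 3 cells, so a largest share need not mark a source. Pit-like cells held 37.4% of the AREG day 3 UMIs of Cul3, under their share of all UMIs. Sltm, an RNA-binding nuclear protein, had 1321 CPM in AREG day 3 cells and 152 CPM in untreated cells, a count ratio of 8.70 (8.51 to 8.89). Its day 3 level without AREG was 1235 CPM and its day 1 level 224 CPM. Cul3, the scaffold of a ubiquitin ligase, had 188 CPM in AREG day 3 cells and 24.9 CPM in untreated cells. In barcodes with fewer than 50 UMIs, Cul3 stood at 1479 CPM in the AREG day 3 library and 23.8 CPM in the untreated library, and the part of free RNA in its ratio was not tested. Tfrc, the receptor that takes up transferrin iron, had 201 CPM in AREG day 3 cells and 51.2 CPM in untreated cells, a count ratio of 3.93 (3.78 to 4.09). Cyp2b10, a cytochrome P450, had 26.8 CPM in AREG day 3 cells and 4.01 CPM in untreated cells, and pit-like cells held 76.3% of its AREG day 3 UMIs. Anpep, an aminopeptidase, had 152 CPM in AREG day 3 cells and 39.0 CPM in untreated cells. Oasl2, an interferon-stimulated gene, had 24.4 CPM in AREG day 3 cells and 5.81 CPM in untreated cells, against 53.4 CPM at day 3 without AREG. Also among the 15 highest were Ccnb1ip1, Gxylt1, Mbd4, Atf5, Sox21, Scaper, Clec2d and Sympk, with count ratios between 3.70 for Sympk and 6.40 for Ccnb1ip1.

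Near the calling limits, Pum2, Selenoi and Usp22 lay just past a ratio of 1, at 46.4, 30.3 and 23.4 CPM in AREG day 3 cells against 22.7, 14.6 and 11.2 CPM in untreated cells. Rwdd4a, Ipo7 and Cdkn1b lay just under it. At the other limit, Creld2 was just inside a ratio of -1, with 40.9 CPM in AREG day 3 cells and 84.1 CPM in untreated cells, and Mucl3 just outside it, with 915 CPM in AREG day 3 cells and 1814 CPM in untreated cells.

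Pit-like and squamous-like cells had larger shares at AREG day 3, and the proliferating-like, endocrine-like and tuft-like classes had smaller shares. The 2 libraries were clustered together and the clusters named from marker genes. Pit-like cells were 46.4% (45.5 to 47.3) of AREG day 3 cells and 34.7% (33.9 to 35.5) of untreated cells. Proliferating-like cells were 4.50% (4.15 to 4.88) of AREG day 3 cells and 8.25% (7.80 to 8.72) of untreated cells. Endocrine-like cells were 1.66% of AREG day 3 cells and 3.27% of untreated cells, and tuft-like cells 0.325% of AREG day 3 cells and 0.914% of untreated cells. Squamous-like cells were 0.673% (0.540 to 0.830) of AREG day 3 cells and 0.353% (0.261 to 0.466) of untreated cells, a share ratio of 0.93 on the log2 scale, which was 0.077 (-0.32 to 0.47) at Leiden resolution 0.5 and 0.22 (-0.41 to 0.85) without cells under 1000 UMIs. Parietal-like cells were 22.8% (22.1 to 23.5) of AREG day 3 cells and 24.1% (23.4 to 24.8) of untreated cells. Cells with neck or chief markers, which were kept as 1 class because some clusters held both, were 17.3% of AREG day 3 cells and 20.1% of untreated cells, a share ratio of -0.22 on the log2 scale that was 0.031 at Leiden resolution 2. At Leiden resolution 2 the proliferating-like share ratio was -0.13 on the log2 scale, against -0.87 here. Without cells under 1000 UMIs the parietal-like ratio was 0.17, against -0.08 here.

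Different clusters held most of the parietal-like, neck/chief-like and pit-like classes in the 2 libraries, while 1 cluster held all proliferating-like cells of both. One cluster held 93.5% of AREG day 3 parietal-like cells, and another, led by Apoa1 and Hamp2, held 89.2% of untreated ones. The AREG day 3 neck/chief-like cells lay at 95.9% in 1 cluster, while the untreated ones lay in 2 other clusters at 56.8% and 39.0%. A further 815 AREG day 3 cells (6.31%) and 1134 untreated cells (8.16%) stayed unnamed, among them a cluster of 8 AREG day 3 and 815 untreated cells with parietal and neck or chief markers alike. Shares therefore describe these clusterings, and no doublet caller was run.

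**Figure D3:**
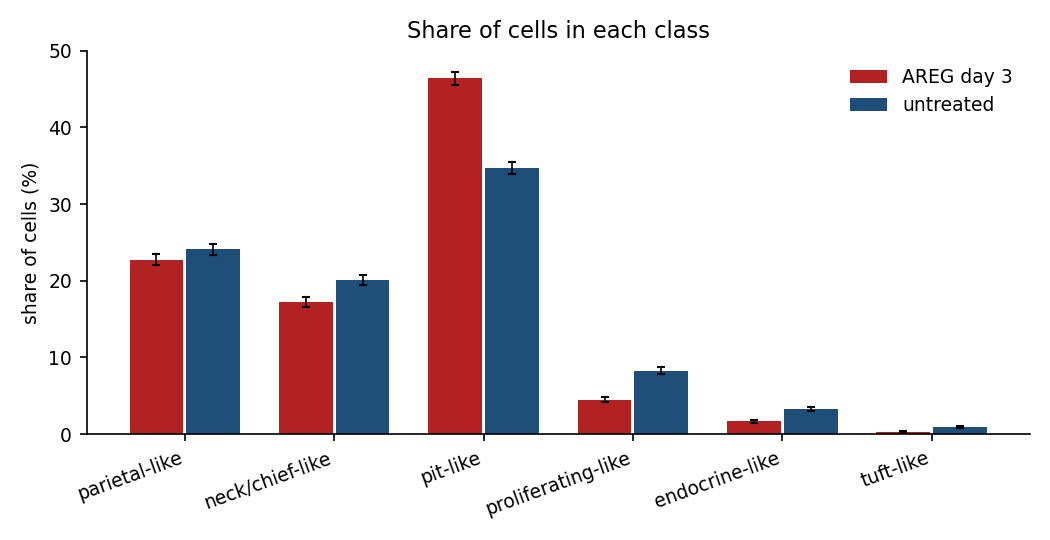
Bars give the share of cells in 6 of the classes, in percent, for AREG day 3 (left bar of each pair) and untreated (right bar); error bars are exact 95% binomial intervals, which cover counting error only. Pit-like cells are 46.4% of AREG day 3 cells and 34.7% of untreated cells.

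Parietal-like cells were present at AREG day 3 at a share close to that of untreated mice, with the pump genes near baseline and several other parietal genes far from it. After every cell was thinned to 500 UMIs, 31.7% of AREG day 3 cells and 34.6% of untreated cells had at least 2 UMIs of Atp4a or Atp4b (57.3% and 55.9% unthinned). In pit-like cells, which should lack the pump, the thinned shares were 7.10% at AREG day 3 and 6.38% in untreated mice, at median depths of 2586 and 2742.5 UMIs. The classes differed in depth: AREG day 3 parietal-like cells had a median of 3609 UMIs and made up 30.7% of their library's UMIs in cells, and untreated ones had 1583 UMIs and made up 11.7%. Summed over all cells, Atp4a had 4612 CPM in AREG day 3 cells and 2917 CPM in untreated cells. Within parietal-like cells Atp4a had 12458 CPM at AREG day 3 and 16861 CPM in untreated mice, and Atp4b 12425 CPM at AREG day 3 and 14554 CPM in untreated mice. The order of the library sums is thus opposite to that within the class as named here, which leaves out that cluster. Of 13 tested acid pump and ion transport genes, 3 were called higher and 0 lower over all cells, against 18.1% of all genes called higher, with a median 0.16 above that of all genes. With every cell weighted equally the list's median was 0.53 below that of all genes.

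Within parietal-like cells, 7.06% of 2718 genes were called higher and 4.23% lower, around a median ratio of 0.15. Hamp2 had 103 CPM at AREG day 3 and 2483 CPM in untreated parietal-like cells, a count ratio of 0.0414 (0.0393 to 0.0435). After thinning, 3.53% of AREG day 3 parietal-like cells and 48.5% of untreated ones had a Hamp2 UMI (20.7% and 74.2% unthinned). In pit-like cells these thinned shares were 0.283% at AREG day 3 and 2.07% in untreated mice. Apoa1 had 1266 CPM at AREG day 3 and 19733 CPM in untreated parietal-like cells. Kcne1 had 5.72 CPM at AREG day 3 and 147 CPM in untreated parietal-like cells, and Lbh, a transcriptional cofactor, 10.1 CPM at AREG day 3 and 149 CPM in untreated ones. The fatty-acid carrier Fabp3 had 661 CPM at AREG day 3 and 1625 CPM in untreated parietal-like cells, and the iron-storage gene Fth1 3035 CPM at AREG day 3 and 6636 CPM in untreated ones.

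On the higher side in parietal-like cells, Tfrc had 458 CPM at AREG day 3 and 136 CPM in untreated mice, and Esrrg, a nuclear receptor of parietal cells, 447 CPM at AREG day 3 and 259 CPM in untreated mice. The 5 highest genes of the class were Sltm, Ccnb1ip1, Scd2, Ptgr1 and Ifitm2. Scd2, a fatty-acid desaturase, had 90.0 CPM at AREG day 3 and 12.7 CPM in untreated mice, a count ratio of 7.09 (5.74 to 8.85). Cholesterol synthesis genes were mostly called higher in this class, with Idi1 at 229 CPM at AREG day 3 and 41.3 CPM in untreated mice and Lss at 61.7 CPM at AREG day 3 and 11.2 CPM in untreated mice. Of the 17 list genes tested there, 11 were called higher and 0 lower, against 7.06% of all genes called higher. In endocrine-like cells 11 of 12 were called higher, against 21.7% of all genes there, so this is not particular to parietal-like cells. The counts were 2 of 5 in neck/chief-like cells, 1 of 11 in pit-like cells and 2 of 13 in proliferating-like cells. In these classes 37.2%, 17.2% and 14% of all genes were called higher. Over all cells 5 of 19 were called higher and 0 lower, against 18.1% of all genes called higher, and their median lay 0.30 above that of all genes.

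Several chief cell products were called lower at AREG day 3. Within neck/chief-like cells Muc6, the mucin of neck cells, was called higher, but the neck mucous list had its median 0.27 below that of the class. Of 9 tested chief cell genes, 4 were called lower and 0 higher, against 1.49% of all genes called lower, and their median ratio was -0.98, 1.49 below that of all genes. Cblif, intrinsic factor, had 664 CPM in AREG day 3 cells and 1767 CPM in untreated cells, and Chia1, an acidic chitinase, 1424 CPM in AREG day 3 cells and 3910.5 CPM in untreated cells. Of 8 tested pancreatic-type enzyme genes, 4 were called lower and 0 higher, against 1.49% of all genes called lower. Their median lay 1.86 below that of all genes. The 7 fixed markers of pancreatic acinar cells summed to 15.5 CPM in AREG day 3 cells, with none at 0. They summed to 41.1 CPM in untreated cells, with Cpa1 at 0. Cel, 1 of the 7, held 251 of their 807 UMIs at AREG day 3 and 1996 of 2535 in untreated cells. Endocrine-like cells held 95.6% of the untreated UMIs of Cel. The part of these markers in the pancreatic-type list was not tested. The median ratio of the chief cell list was -0.98 at AREG day 3, -0.72 at day 3 without AREG and -2.09 at day 1, and that of the pancreatic-type list -1.35 at AREG day 3, -1.22 at day 3 without AREG and -3.85 at day 1. Of 15 tested neck mucous genes 2 were called higher and 2 lower, against 18.1% of all genes called higher and 1.49% lower. Muc6 had 116 CPM in AREG day 3 cells and 61.0 CPM in untreated cells, and Gkn3, a gastrokine of neck cells, 285 CPM in AREG day 3 cells and 188 CPM in untreated cells. At day 3 without AREG the levels were 228 CPM for Muc6 and 595 CPM for Gkn3. Tff2, the trefoil factor of neck cells, stood on the other side of 0, with 5867 CPM in AREG day 3 cells and 12876 CPM in untreated cells.

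Within neck/chief-like cells the median ratio was 0.76, and 37.2% of 1767 genes were called higher and 3.23% lower. Muc6 had 587 CPM at AREG day 3 and 158 CPM in untreated neck/chief-like cells, a count ratio of 3.70 (3.52 to 3.89). Of 13 tested neck mucous genes in this class, 4 were called higher and 1 lower, against 37.2% and 3.23% of all genes there. Their median lay 0.27 below that of the class. Pga5 had 150 CPM at AREG day 3 and 2021 CPM in untreated neck/chief-like cells, and Nupr1 57.9 CPM at AREG day 3 and 589 CPM in untreated ones. Dmbt1, a mucosal scavenger glycoprotein, had 228 CPM at AREG day 3 and 25.7 CPM in untreated neck/chief-like cells. Spp1, osteopontin, had 1694 CPM at AREG day 3 and 531 CPM in untreated ones.

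After thinning to 500 UMIs, neck/chief-like cells with Muc6 or Gkn3 but fewer than 2 UMIs of Chia1, Cblif or Pnliprp2 were 22.7% (21.0 to 24.5) at AREG day 3 and 13.5% (12.3 to 14.8) in untreated mice. Cells with the chief genes but no neck gene were 25.2% (23.4 to 27.0) at AREG day 3 and 43.3% (41.5 to 45.2) in untreated mice. Cells with both were 13.0% (11.6 to 14.5) at AREG day 3 and 12.3% (11.1 to 13.6) in untreated mice, and these intervals overlap. In pit-like cells, 6.89% at AREG day 3 and 3.09% in untreated mice had a thinned UMI of Muc6 or Gkn3, and 1.13% at AREG day 3 and 2.59% in untreated mice had 2 UMIs of the chief genes. The free-RNA part of these shares was not tested.

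**Figure D4:**
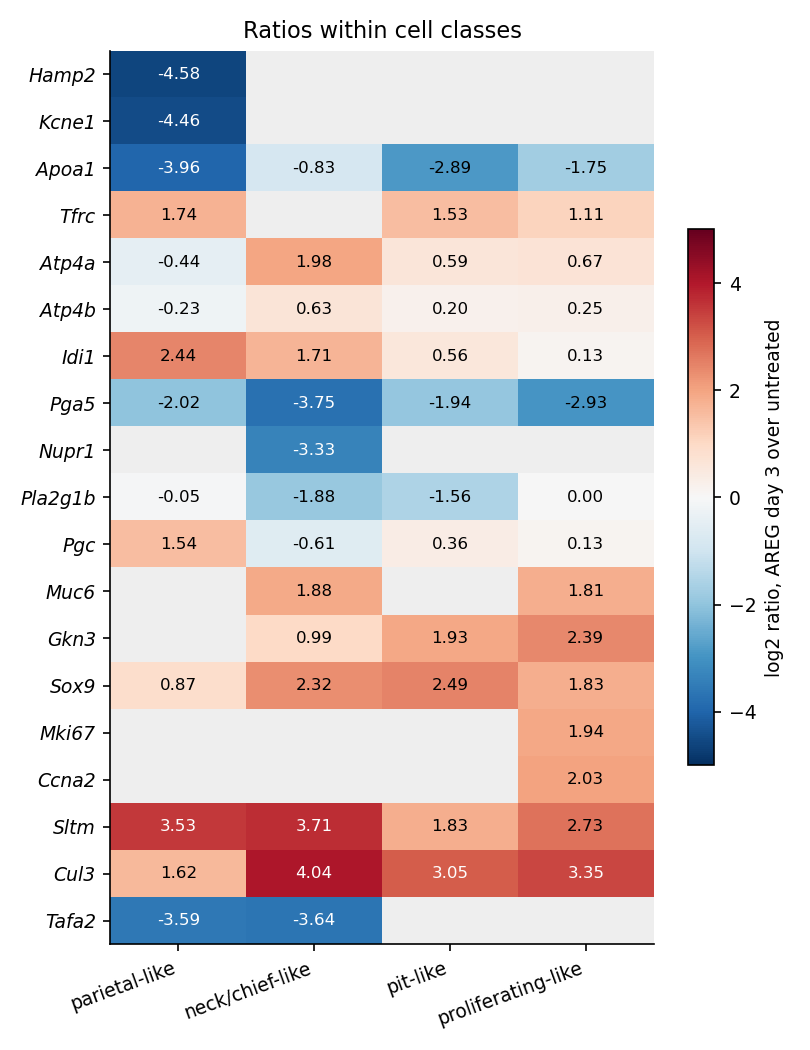
Each cell gives the log2 ratio of AREG day 3 over untreated for 1 gene (rows) within 1 class (columns), blue for lower and red for higher at AREG day 3, and grey where the gene had under 50 CPM in both libraries of that class. Hamp2 stands at -4.58 in parietal-like cells, Muc6 at 1.88 in neck/chief-like cells and Sox9 at 2.49 in pit-like cells.

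Fewer cells lay in the proliferating class at AREG day 3, and within it mitosis genes were detected in more cells and replication genes in fewer. Over all cells the 7 tested G2 and mitosis genes had a median ratio of 0.03, against -0.75 at day 3 without AREG and 0.76 at day 1. Mki67, the proliferation marker, had 22.5 CPM in AREG day 3 cells and 10.2 CPM in untreated cells, against 11.5 CPM at day 3 without AREG. Ube2c, which drives exit from mitosis, had 77.2 CPM in AREG day 3 cells and 79.2 CPM in untreated cells, against 38.1 CPM at day 3 without AREG. Of the 8 tested replication genes, 1 was called lower and 0 higher, against 1.49% of all genes called lower and 18.1% higher. All 8 lay below the all-gene median. Mcm3, a subunit of the replicative helicase, was the one called, with 7.45 CPM in AREG day 3 cells and 23.1 CPM in untreated cells.

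Within proliferating-like cells, 14% of 2378 genes were called higher and 1.14% lower, around a median ratio of 0.06. Mki67 had 168 CPM at AREG day 3 and 43.0 CPM in untreated proliferating-like cells, a count ratio of 3.90 (3.45 to 4.42). Ccna2, cyclin A2, had 219 CPM at AREG day 3 and 52.9 CPM in untreated ones. Ccnd2, cyclin D2, had 20.7 CPM at AREG day 3 and 68.9 CPM in untreated ones. After thinning, 50.9% (46.7 to 55.0) of AREG day 3 proliferating-like cells and 24.8% (22.3 to 27.4) of untreated ones had at least 2 UMIs of the mitosis genes (92.8% and 81.1% unthinned). For the replication genes the thinned shares were 9.11% (6.90 to 11.7) at AREG day 3 and 15.1% (13.1 to 17.3) in untreated mice. In parietal-like cells, which do not divide, the mitosis-gene share was 0.578% at AREG day 3 and 0.0299% in untreated mice. Over all cells it was 3.79% (3.47 to 4.14) at AREG day 3 and 2.80% (2.53 to 3.09) in untreated mice. Because the cycle genes also set which cells enter the class, these values describe the class and do not test it.

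Pit products lay below the median of all genes, and most of the tested stem and progenitor genes were called higher. Of 17 tested pit surface genes, 1 was called higher and 0 lower, against 18.1% of all genes called higher and 1.49% lower. Their median lay 0.65 below that of all genes. The one called was Foxq1, a regulator of Muc5ac, with 137 CPM in AREG day 3 cells and 51.1 CPM in untreated cells. Muc5ac had 996 CPM in AREG day 3 cells and 868 CPM in untreated cells. Of 7 tested stem and progenitor genes, 5 were called higher and 0 lower, against 18.1% of all genes called higher. Sox9, a transcription factor of progenitor cells, had 102 CPM in AREG day 3 cells and 29.4 CPM in untreated cells, against 75.2 CPM at day 3 without AREG. Within pit-like cells Sox9 had 101 CPM at AREG day 3 and 17.2 CPM in untreated mice, a count ratio of 5.90 (5.29 to 6.60), and after thinning 5.97% of AREG day 3 pit-like cells and 1.22% of untreated ones had a Sox9 UMI. In parietal-like cells the Sox9 shares were 3.13% at AREG day 3 and 2.06% in untreated mice. In neck/chief-like cells they were 9.23% at AREG day 3 and 2.61% in untreated mice, and in proliferating-like cells 6.01% and 1.92%. In endocrine-like cells they were 3.26% and 1.10%, on 7 and 5 cells. The higher Sox9 share was thus not particular to pit-like cells. Of 2079 genes within pit-like cells, 17.2% were called higher and 1.01% lower. Its 5 highest also held Cyp2b10, Cul3, Ptms and Sox21, and its 5 lowest were Apoa1, Pga5, Il33, Sectm1b and Pla2g1b. Pit-like cells held only 2.04%, 6.05% and 1.78% of the untreated UMIs of Apoa1, Pga5 and Pla2g1b. In low-UMI barcodes of mostly free RNA, Apoa1 had 458 CPM in the AREG day 3 library and 3694 CPM in the untreated library. Pga5 had 43.6 and 604 CPM there, and Pla2g1b 10367 and 55441 CPM, in the same order. The part of free RNA in these ratios was not tested. Il33, an alarmin cytokine, had 14.5 CPM at AREG day 3 and 57.1 CPM in untreated pit-like cells.

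Among the listed ligands of the EGF receptor (ERBB) family, Hbegf and Nrg1 were the 2 members above the 20 CPM limit. Hbegf had 22.4 CPM in AREG day 3 cells and 19.4 CPM in untreated cells, and Nrg1 94.3 CPM in AREG day 3 cells and 47.7 CPM in untreated cells. Of 7 tested ERBB receptors and regulators, 5 were called higher and 0 lower, against 18.1% of all genes called higher, with a median 0.60 above that of all genes. Errfi1, a feedback inhibitor of the receptor, had 41.6 CPM in AREG day 3 cells and 14.0 CPM in untreated cells, against 41.0 CPM at day 3 without AREG. Lrig1, a negative regulator that marks progenitors, had 39.1 CPM in AREG day 3 cells and 13.6 CPM in untreated cells, against 38.2 CPM at day 3 without AREG. The receptors Erbb2 and Erbb3 had 31.8 and 45.6 CPM in AREG day 3 cells, against 15.1 and 20.7 CPM in untreated cells. The list's median ratio was 1.10 at AREG day 3 and 1.21 at day 3 without AREG. Of the 3 tested ERK response genes none was called, and of 14 immediate early genes 1 was called higher, against 18.1% of all genes. That gene was Egr1, with 198 CPM in AREG day 3 cells and 70.5 CPM in untreated cells.

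Most of the tested wound repair and squamous stress genes lay below the all-gene median at AREG day 3. Of 15 tested genes of this list, 1 was called lower and 0 higher, against 1.49% of all genes called lower and 18.1% higher. In the list 12 genes lay below the all-gene median. The list median was -0.44 at AREG day 3, -0.61 at day 3 without AREG and 1.48 at day 1. The gene called was Sprr2a3, a small proline-rich protein, with 1411 CPM in AREG day 3 cells and 4251 CPM in untreated cells, against 10810 CPM at day 1. It has near-identical copies, so its counts are uncertain. Krt19, a keratin, had 1049 CPM in AREG day 3 cells and 1987 CPM in untreated cells. Of 19 tested NRF2 and glutathione genes, 4 were called higher and 1 lower, against 18.1% of all genes called higher and 1.49% lower, with a median 0.15 below that of all genes. Gclc, the rate-limiting enzyme of glutathione synthesis, had 77.5 CPM in AREG day 3 cells and 25.2 CPM in untreated cells, and Gsta1, a glutathione transferase, 1669 CPM in AREG day 3 cells and 3478 CPM in untreated cells. The metallothioneins Mt1 and Mt2 had 2879 and 1566 CPM in AREG day 3 cells, against 1414 and 732 CPM in untreated cells. Of 8 tested interferon-stimulated genes 1 was called higher, Oasl2, and 0 lower, against 18.1% of all genes called higher and 1.49% lower. Of 5 tested iodide transport and dual oxidase genes, 3 were called higher and 0 lower, against 18.1% of all genes called higher, among them Duox2, a hydrogen peroxide-producing oxidase, with 39.6 CPM in AREG day 3 cells and 13.6 CPM in untreated cells, against 100 CPM at day 3 without AREG.

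Endocrine-like cells were few, and their hormones stood apart. Ghrl, ghrelin, had 799 CPM over AREG day 3 cells and 2326 CPM over untreated cells. After thinning, 30.7% (24.6 to 37.3) of AREG day 3 endocrine-like cells and 56.6% (51.9 to 61.2) of untreated ones had at least 5 Ghrl UMIs, and 0 of 5997 AREG day 3 and 13 of 4824 untreated pit-like cells did. Sst, somatostatin, had 514 CPM over AREG day 3 cells and 639 CPM over untreated cells. Chgb, a granin of secretory granules, had 98.1 CPM over AREG day 3 cells and 36.4 CPM over untreated cells. Of 2421 genes within endocrine-like cells, 21.7% were called higher and 1.82% lower. Vgf, a granin-like neuropeptide precursor, had 501 CPM at AREG day 3 and 31.2 CPM in untreated endocrine-like cells, on 253 and 31 UMIs, and Ptprn, a granule membrane protein, had 386 CPM at AREG day 3 and 43.3 CPM in untreated ones. Tafa2 had 0 UMIs at AREG day 3 and 53 in untreated endocrine-like cells, at least 8.98-fold lower at a floor of 3 counts in the AREG day 3 sum. This was not particular to endocrine-like cells. The untreated level of Tafa2 was 53.4 CPM in them, 51.1 CPM in parietal-like and 53.1 CPM in neck/chief-like cells. It was 1138 CPM in untreated barcodes with fewer than 50 UMIs, and the part of free RNA was not tested.

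**Figure D5:**
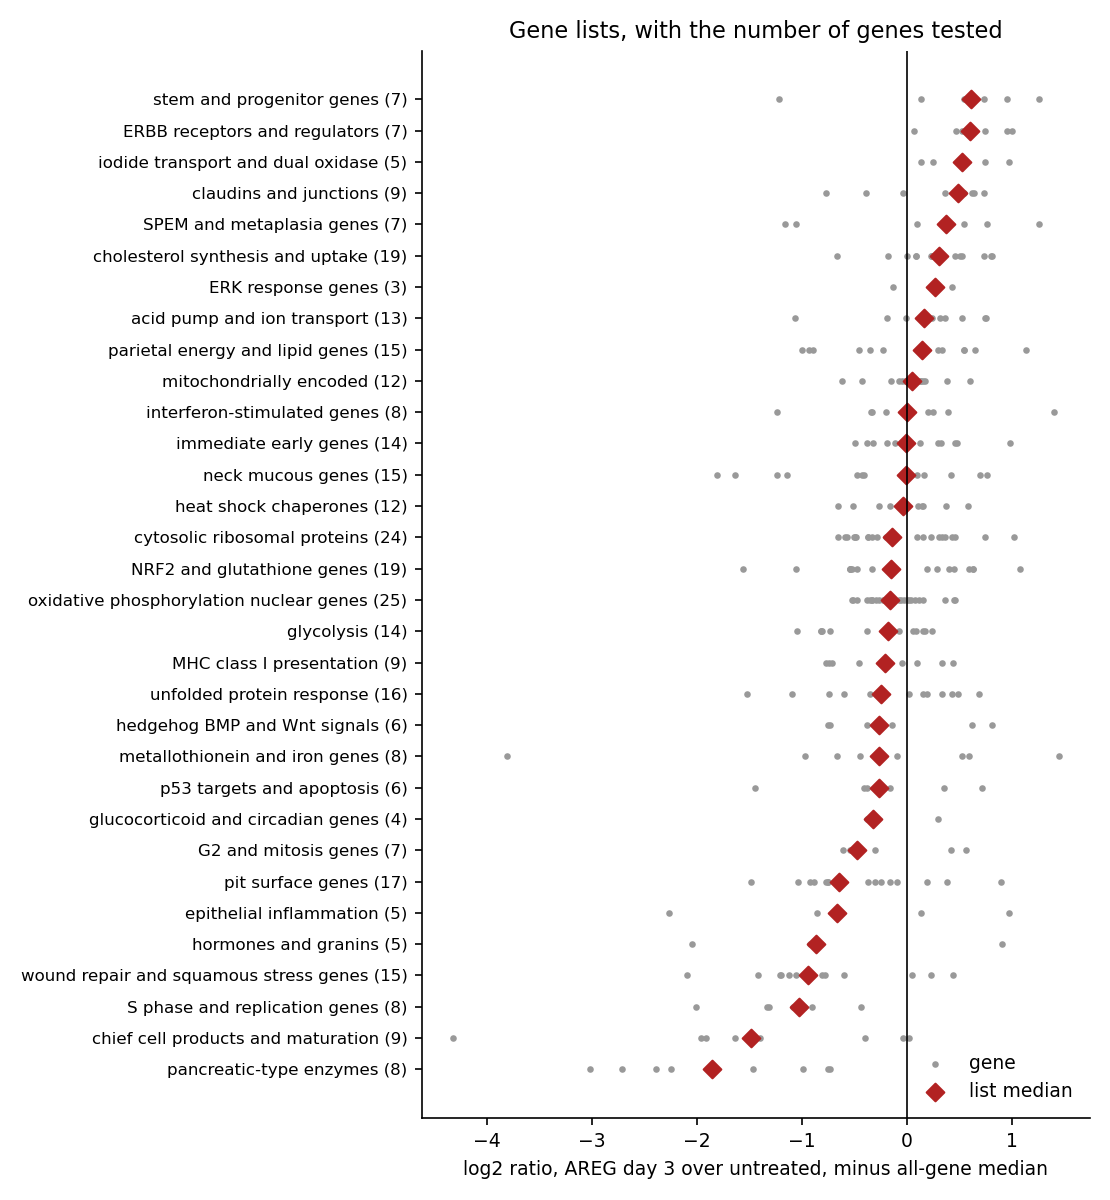
Each row is a gene list with its number of tested genes, each grey point is 1 gene's log2 ratio of AREG day 3 over untreated minus the median of all tested genes, and the red diamond is the list median. The pancreatic-type and chief cell lists lie at -1.86 and -1.49, and the ERBB list at 0.60.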

How the data were processed

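Each library was a PIPseq 3' single-cell library, and the deposited matrices hold raw UMI counts per gene and barcode, per the file headers and from the values. The submitters' processing notes name the mm39 and GRCm39 build, with the aligner and counter not given in the sources used here, and neither is strand use. Total counts were 81286332 in the AREG day 3 library and 98893436 in the untreated library. Counts were summed over cells and scaled to CPM, with a pseudocount of 1 CPM. Genes needed 20 CPM in either library, or 50 CPM within a class of at least 100 cells. Both libraries were clustered together (2000 variable genes, 40 components, 15 neighbours, Leiden resolution 1; scanpy 1.11.5). Neck and chief markers were pooled, and clusters with as many markers of a second abundant class left unnamed, after the clusters were seen. Named genes were the 15 highest and 15 lowest ratios (unnamed gene models, mitochondrial, ribosomal, haemoglobin and immunoglobulin genes left out), the 10 most abundant of each library, the 5 highest and lowest of each class, those nearest the limits, and members of 35 lists. Members and lists were chosen with earlier results of these data known; list medians needed 3 tested genes. Intervals were exact Poisson, exact binomial (Clopper-Pearson) or, for share ratios, Katz, at 95%. The ratios were tested on simulated data. TMM factors came from edgeR 4.0.16. Doublets were not called. Of the highest and lowest genes, 2 are not reported here.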

Additional observations from a re-analysis of the deposited data

Results flagged for a closer look

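Barcodes with fewer than 50 UMIs lie outside the cells compared. Like Cul3 above, Cbfa2t2 and Gm47854 stood higher in those barcodes of the AREG day 3 library than in its cells and in the matching untreated barcodes. Cbfa2t2 had 1152 CPM there in the AREG day 3 library, against 9.51 CPM in the untreated library, and 23.4 CPM in AREG day 3 cells against 6.60 CPM in untreated cells. The unnamed gene model Gm47854 had 5300 CPM there in the AREG day 3 library, against 0.297 CPM in the untreated library. In cells it had 353 CPM in the AREG day 3 library, with 339 to 392 CPM in parietal-like, pit-like, neck/chief-like and proliferating-like cells, and 0.0649 CPM in the untreated library.

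Several genes had ratios past 2-fold in opposite directions in different classes, and the difference between classes was not tested. The median ratio of all tested genes also differed, at 0.15 in parietal-like, 0.34 in pit-like and 0.76 in neck/chief-like cells. Of all tested genes, 4.23% were called lower in parietal-like cells. The shares called higher were 17.2% in pit-like and 37.2% in neck/chief-like cells. In parietal-like cells the log2 ratio of AREG day 3 over untreated was -1.16 for Serinc3, -1.13 for Bckdha, -1.04 for Phyh, -1.75 for Pdgfa, -1.17 for Aplp2, -1.16 for Pccb and -1.03 for Smim22. In pit-like cells it was 1.11 for Serinc3 and 1.07 for Bckdha. In neck/chief-like cells it was 1.35 for Serinc3, 1.31 for Phyh, 1.35 for Pdgfa, 1.27 for Aplp2, 1.25 for Pccb and 1.30 for Smim22. Chia1 went the other way, at 1.15 in parietal-like cells and -1.04 in neck/chief-like cells. Its level in parietal-like cells was 308 CPM at AREG day 3 and 138 CPM in untreated mice, and in barcodes with fewer than 50 UMIs it was 1703 CPM in the AREG day 3 library and 2978 CPM in the untreated library.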

How the results depend on the processing

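No paired analysis was possible because each group is 1 library. The cause of each change below was not tested. The count of genes called higher (901) and lower (74) was 218 and 46 with a pseudocount of 10 CPM, 433 and 208 with the abundant genes left out of the total, 61 and 210 with TMM scaling, 1813 and 149 with a 5 CPM limit, 104 and 22 with a 100 CPM limit and 1981 and 184 with no limit; 466 genes were higher with every cell weighted equally. The median absolute ratio (0.55) was 0.45, 0.42, 0.39, 0.62, 0.40, 0.17 and 0.43 under those settings in that order, and 0.52 without the deepest 1% of cells. Share ratios moved as follows. For parietal-like cells the value was -0.27 at resolution 0.5, 0.17 with at least 1000 UMIs, 0.059 with at most 20% mitochondrial UMIs and, chosen after seeing the data, -0.18 with mixed clusters kept. For neck/chief-like cells it was 0.031 at resolution 2 and -0.38 with at least 1000 UMIs. At resolution 0.5 and resolution 2 it was 0.52 and 0.63 for pit-like and -1.03 and -0.13 for proliferating-like cells, and it was -1.53 for endocrine-like cells at resolution 0.5. List medians relative to all genes moved in 17 of 370 cases. With a 100 CPM limit they were 0.040 for nuclear oxidative phosphorylation, 0.18 for mitochondrially encoded, 0.22 for neck and 0.49 for immediate early genes. With no limit they were 0.54 for acid pump, 0.23 for nuclear oxidative phosphorylation, 0.52 for mitochondrially encoded, -0.36 for pancreatic-type, 0.40 for neck, -0.41 for wound repair, 0.47 for ERK response, 0.34 for heat shock, 0.21 for glycolysis and 0.68 for cholesterol genes. With every cell weighted equally they were -0.53 for acid pump, -0.50 for nuclear oxidative phosphorylation and -0.31 for mitochondrially encoded genes. All 15 highest and 15 lowest genes by ratio stayed past 2-fold in the same direction under all 12 settings.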

Other observations

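Lists not described above gave these medians relative to all tested genes: -0.24 for 16 unfolded protein response genes, -0.21 for 9 MHC class I genes, -0.18 for 14 glycolysis genes, -0.27 for 6 p53 and apoptosis genes, 0.49 for 9 claudin and junction genes and 0.37 for 7 metaplasia genes. Of the 9 junction genes, 4 were called higher and 0 lower, and of the 7 metaplasia genes 3 were called higher and 0 lower. Of all genes, 18.1% were called higher. Cdh1, E-cadherin, had 346 CPM in AREG day 3 cells and 159 CPM in untreated cells, and 342 CPM at day 3 without AREG. Within neck/chief-like cells Cdh1 had 300 CPM at AREG day 3 and 69.0 CPM in untreated mice.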
